A study of Mus musculus with 18 samples.

Results

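The collagen chains were followed in the dura mater of male mice, the fibrous membrane between brain and skull, with and without a stroke and with and without mast cells. A gene was counted as a collagen chain when its symbol is Col, a number, the letter a and a number, as in Col1a1, and when its probe set carried exactly 1 gene symbol. This rule found 44 genes among the 19937 genes tested, represented by 46 probe sets. Col6a5 and Col6a6 had 2 probe sets each, and the one with the higher mean over the arrays stood for the gene. There were 11 fibrillar chains, 8 basement membrane chains (the 6 type IV chains, Col15a1 and Col18a1) and 25 others, which comprised 6 beaded filament chains of type VI, 9 fibril-associated chains, 3 short-chain network chains and 7 transmembrane, anchoring and remaining chains.

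Each of the 18 arrays held the dura of 1 mouse, aged 17 to 21 weeks, with 3 arrays in each of 6 groups. Wild-type mice were WBB6F1-Kit+/+. Mast cell-deficient mice were WBB6F1-KitW/W-v, whose mutant Kit receptor deprives them of mast cells and is also known to affect other cells that need Kit. Engrafted mice were of the same mutant strain and had received mast cells into a vein 8 to 10 weeks before the experiment, so they share the Kit mutations with the deficient group. Each category held naive mice and mice taken 2 days after a 30 minute occlusion of the middle cerebral artery by a filament. Sham-operated mice were not analysed here, so a difference between stroke and naive dura covers the surgery as well as the stroke.

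Collagens are trimers of chains wound into a triple helix. Fibrillar collagens such as types I and III assemble into the cross-banded fibrils that give dura its tensile strength, with type V chains helping to start and limit the fibrils. Type IV chains instead form the sheet-like network of basement membranes, which in dura underlie the endothelium of vessels and surround smooth muscle and nerve; types XV and XVIII are proteoglycans found at such membranes. Type VI chains build beaded filaments between cells and fibrils.

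The mean log2 value of 9 mast cell markers lay between 7.58 and 8.14 on the wild-type arrays, between 6.12 and 6.35 on the deficient arrays and between 7.45 and 8.60 on the engrafted arrays. None of 10 fibroblast markers lay below the lower quartile of the tested values on all arrays. The mean of 9 choroid plexus markers ranged from 8.12 to 11.74. The 5 arrays lowest in the choroid plexus gene Ttr, a fixed number, were wild-type stroke 2, deficient naive 1 and 3, deficient stroke 2 and engrafted naive 3. Engrafted stroke array 3, with a choroid plexus mean of 9.39, was not among them. Over all arrays the mean of 10 pericyte and smooth muscle markers was 9.95 to 10.47, that of 8 macrophage markers 9.96 to 10.47, that of 5 Schwann cell markers 8.64 to 9.01 and that of 10 keratinocyte markers 6.74 to 7.06. On bulk arrays fewer cells of a type and less RNA per cell cannot be told apart. Of the 44 collagens, 43 lay above the lower quartile of the tested values on all arrays, and Col10a1 lay below it on all of them.

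Because some of these genes lie side by side, sequences before the RefSeq starts (build GRCm38.p6) are shown for a neighbouring pair that rose together and for a pair of fibrillar chains of which only Col3a1 rose. Col4a1 and Col4a2 lie head to head on chromosome 8 with annotated starts 21 bases apart on opposite strands, so that the windows around their starts overlap by 78 identical bases. The stretch from 50 to 21 bases before the Col4a2 start (chr8:11312755-11312784, plus strand) holds a GC box, read on the other strand, and a CCAAT box, both in capitals.
Col4a2: cgCCGCCCgaggagctccCCAATttgttgg
Col3a1 and Col1a2 both code for fibrillar chains. Their 250 bases before the start are at chr1:45311288-45311537 and chr6:4505368-4505617, both on the plus strand, with the motifs found again in capitals.
Col3a1: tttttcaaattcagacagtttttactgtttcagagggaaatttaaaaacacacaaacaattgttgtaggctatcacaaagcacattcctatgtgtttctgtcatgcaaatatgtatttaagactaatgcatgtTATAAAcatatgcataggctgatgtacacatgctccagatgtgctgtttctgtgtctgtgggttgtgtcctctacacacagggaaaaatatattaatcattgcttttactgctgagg
Col1a2: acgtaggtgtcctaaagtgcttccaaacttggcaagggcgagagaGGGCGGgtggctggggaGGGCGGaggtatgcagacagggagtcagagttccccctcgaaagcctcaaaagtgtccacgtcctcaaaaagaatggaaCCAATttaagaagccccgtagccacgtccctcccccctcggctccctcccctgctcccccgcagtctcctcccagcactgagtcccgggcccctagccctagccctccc

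Both strands of each window were searched for the TATA box TATAAA, for the box CCAAT named above, for the GC box GGGCGG and for the AP-1 motif TGANTCA. Matches of different motifs were counted separately, whether or not they overlapped. The table held windows for 35 of the 44 genes, 38 windows in all. The GC box GGGCGG was found in 22 of these 38 windows (57.9%), against 32.7% of all 32851 windows in the table. CCAAT was found in 34.2% of the collagen windows and 33.8% of all windows, TATAAA in 13.2% and 12.4%, and the AP-1 motif in 1 collagen window (2.63%), that of Col6a1, and 6.75% of all. These matches describe letters and no binding was measured. Other neighbours in the RefSeq order were Col3a1 with Col5a2, Col4a3 with Col4a4, Col4a5 with Col4a6, Col6a1 with Col6a2, Col6a4 with Col6a5 and Col6a6, and Col9a1 with Col19a1.

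The first comparison asked which collagens differed between stroke and naive dura of wild-type mice. A model over all tested probe sets (limma, with p adjusted by Benjamini and Hochberg) was used, and a gene was called when its adjusted p was under 0.05. In wild-type dura 10 of 44 collagens rose and 0 fell. Of all 21640 probe sets, 6.24% were called higher and 4.63% lower in this comparison. At an unadjusted p under 0.05 there were 15 of 44, against 26% of all probe sets. The stroke arrays lay wholly above the naive ones for 16 collagens (15.8% of all probe sets) and wholly below for 0 (14.2%). The log2 difference was positive for 36 of the 44, with a median of 0.18 against 0.01 over all probe sets. The 10 were 3 of 8 basement membrane chains, 4 of 11 fibrillar chains and 3 of 25 others, and the plot of stroke differences by gene sets them beside the other 34.

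**Figure D1:**
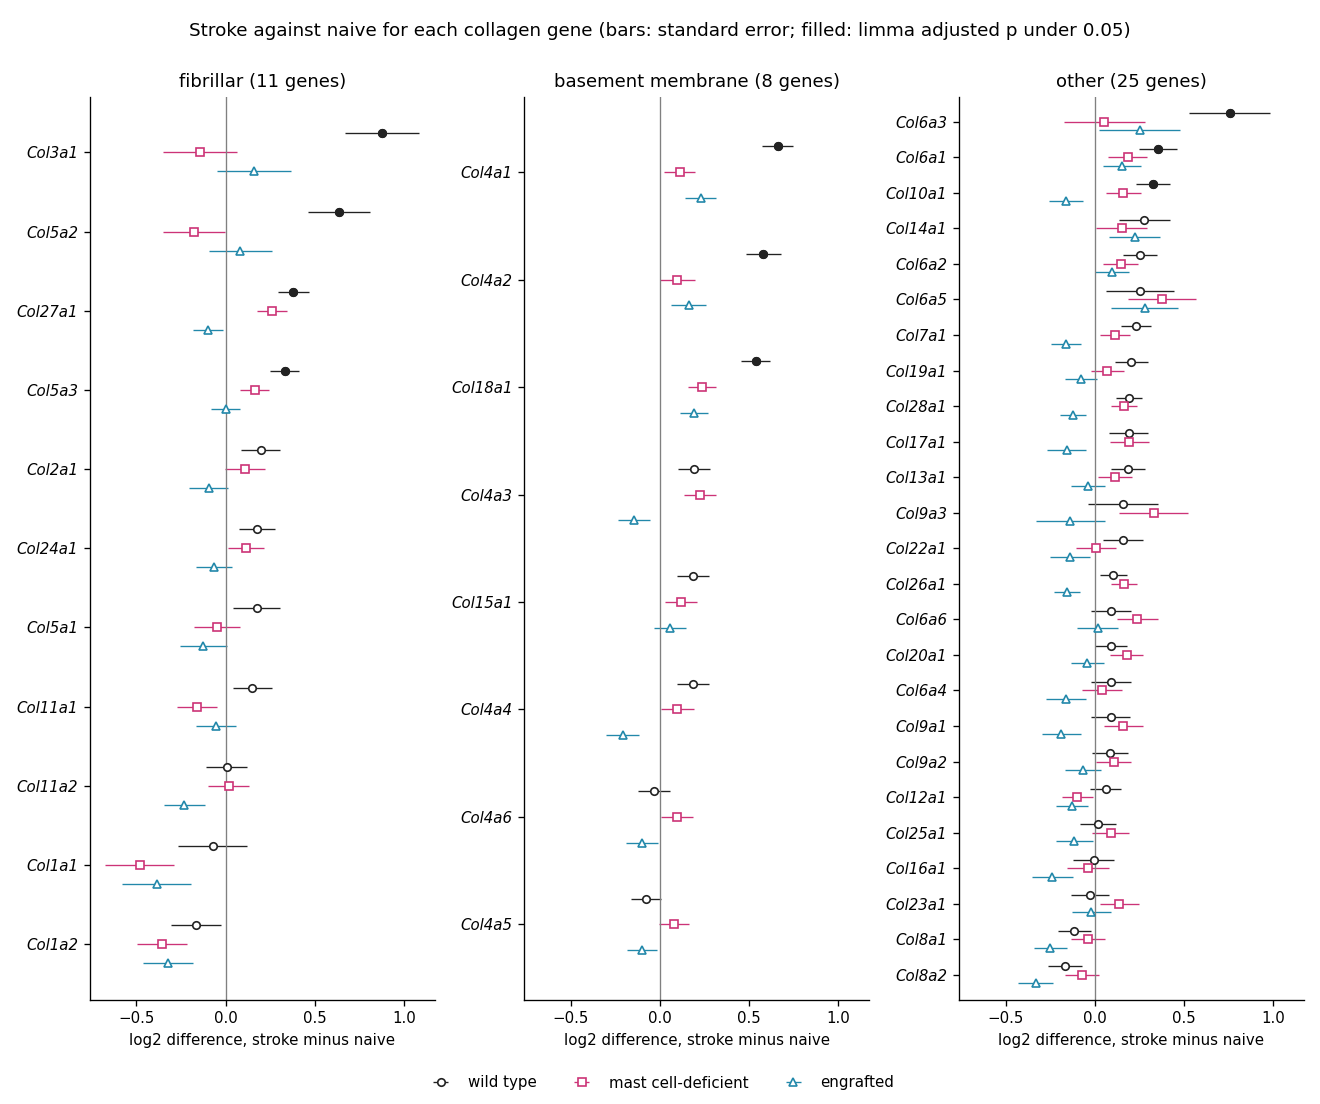
Log2 difference between stroke and naive dura for each of 44 collagen genes, in 3 panels for fibrillar, basement membrane and other chains; circles are wild-type, squares mast cell-deficient and triangles engrafted mice (3 arrays against 3), bars are standard errors and filled symbols have a limma adjusted p under 0.05. The 10 filled symbols are all wild-type, led by Col3a1 at 0.88.

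Among basement membrane chains, Col4a1, Col4a2 and Col18a1 rose. Col4a1 and Col4a2 are the chains of the common type IV trimer of vessel basement membranes, and Col18a1 carries the endostatin domain at its end. Col4a1 had log2 values of 9.17, 9.01 and 9.17 on the wild-type naive arrays and 9.76, 9.90 and 9.67 after stroke. All 3 stroke arrays thus lay above all 3 naive arrays, and the difference was 0.66 ± 0.09 (SE, n = 3 per group), 1.58-fold (limma adjusted p = 0.000187).

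Col4a2, its neighbour and partner, read 9.03, 8.95 and 9.04 in naive and 9.51, 9.75 and 9.49 in stroke dura. Again no array overlapped, with a difference of 0.58 ± 0.10 (limma adjusted p = 0.00147). Col18a1 read 8.59, 8.50 and 8.39 in naive and 8.99, 8.998 and 9.10 in stroke dura. The groups were apart here too, by 0.54 ± 0.08 (limma adjusted p = 0.000538). These 3 genes kept their calls in all 14 alternative analyses, with log2 differences of 0.57 to 0.72 for Col4a1, 0.49 to 0.62 for Col4a2 and 0.48 to 0.58 for Col18a1. The mean of 10 endothelial markers, none of which was called in wild-type stroke dura, was 10.79 to 10.91 on naive and 10.77 to 11.07 on stroke arrays. In that comparison 10.9% of all probe sets were called in either direction.

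The other basement membrane chains did not pass the test. Col15a1, a proteoglycan of the outer basement membrane zone, differed by 0.19, and the chains of the more restricted type IV trimers, Col4a3, Col4a4, Col4a5 and Col4a6, by 0.19, 0.18, -0.08 and -0.03. Of 13 other basement membrane proteins measured, 1 rose and 2 fell, where 6.24% of all probe sets were called higher and 4.63% lower. Lamc1, the common laminin gamma chain, rose by 0.32 ± 0.08, while the laminin alpha chains Lama3 and Lama2 fell by 0.48 and by 0.35. Each of these 3 calls was lost when single wild-type arrays were left out: naive 2 or 3 for all 3 genes, stroke 1 or 2 for Lamc1 and Lama2, and stroke 3 for Lama3 and Lama2. Over the alternatives Lamc1 ran from 0.18 to 0.37, Lama3 from -0.55 to -0.34 and Lama2 from -0.43 to -0.28.

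Among fibrillar chains, Col3a1, Col5a2, Col27a1 and Col5a3 rose. Col3a1 codes for the single chain of type III collagen, a major fibril component of pliable and healing tissue. It read 10.68, 10.65 and 10.34 on the wild-type naive arrays and 11.24, 11.77 and 11.29 after stroke. The groups did not overlap, and the difference of 0.88 ± 0.21 was 1.84-fold (limma adjusted p = 0.0134).

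Col5a2, a type V chain encoded next to Col3a1, read 9.16, 9.17 and 8.92 in naive and 9.60, 10.02 and 9.54 in stroke dura. Its groups were apart by 0.64 ± 0.17 (limma adjusted p = 0.0295). Col27a1, a fibrillar chain best known from cartilage, rose by 0.38 ± 0.08 and Col5a3, a further type V chain, by 0.33 ± 0.08.

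Col1a1 and Col1a2, the chains of type I collagen and the bulk of dural fibrils, were not called. Col1a1 read 12.24, 12.33 and 12.01 in naive and 11.99, 12.59 and 11.79 in stroke dura of wild-type mice. The stroke arrays spanned the naive ones, and the difference was -0.07 ± 0.19. Col1a2 differed by -0.16 ± 0.14, again with overlapping arrays. Among the wild-type arrays, stroke array 2 was the highest for both type I chains and also for Col3a1 and Col5a2.

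**Figure D2:**
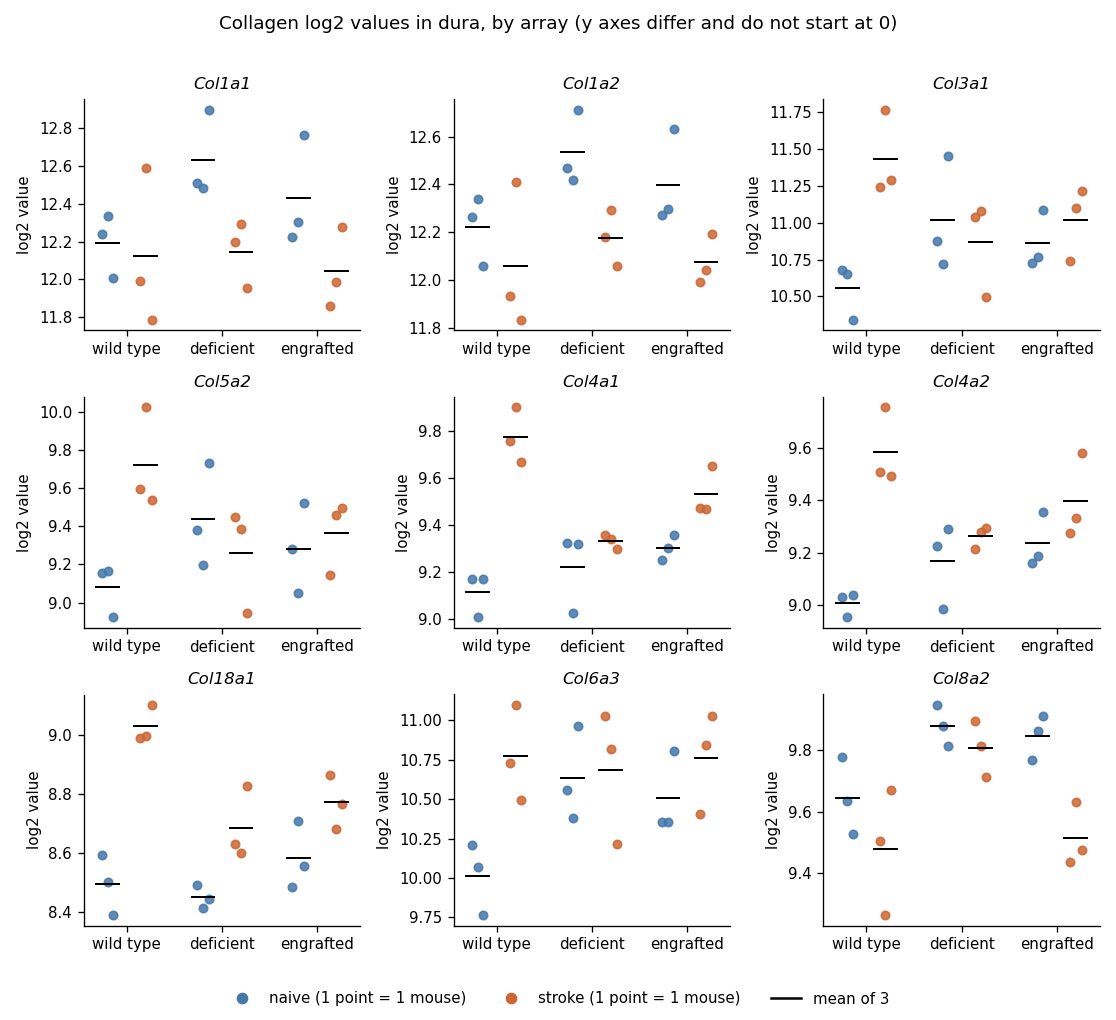
Log2 values of 9 collagen genes on all 18 arrays, 1 panel a gene, with naive arrays in blue, stroke arrays in orange and a bar at the mean of 3; the vertical axes differ and do not start at 0. In wild-type mice the stroke points of Col4a1, Col4a2, Col18a1, Col3a1, Col5a2 and Col6a3 lie above the naive points, while those of Col1a1 overlap them.

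Of the 4 fibrillar calls, 3 were lost in some alternatives that left out 1 array. Col27a1 kept its call in 13 of 14 alternatives (0.31 to 0.43), each single-array removal and the covariate fit included, and lost it when the 5 Ttr-low arrays were removed (adjusted p = 0.0533). When wild-type naive array 3 was left out, or wild-type stroke array 2 was, Col3a1 differed by 0.77 and 0.71 and was no longer called (limma adjusted p = 0.0649 and 0.0657). Col5a2 lost its call without naive arrays 2 or 3 or stroke array 2 of the wild type (0.68, 0.56 and 0.48). Col5a3 lost it without naive arrays 1 or 3 or stroke array 2 (0.30, 0.29 and 0.24). With choroid plexus and neuron marker means as covariates the difference was 0.49 for Col3a1, 0.33 for Col5a2, 0.34 for Col5a3 and 0.39 for Col6a3, and all 4 calls were lost (adjusted p = 0.0907, 0.174, 0.0630 and 0.274); for Col5a3 the difference itself was no smaller than the 0.33 without covariates. The mean of 10 fibroblast markers was 9.90 to 9.97 on wild-type naive and 10.10 to 10.39 on wild-type stroke arrays, and that of 9 neuron markers was 10.02 to 10.58 and 9.19 to 9.63; the part of fibroblasts in these results was not tested.

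Among the other collagens, Col6a3, Col6a1 and Col10a1 rose. Col6a3 and Col6a1 code for chains of type VI beaded filaments. Col6a3 read 10.21, 10.07 and 9.77 on wild-type naive and 10.73, 11.10 and 10.49 on stroke arrays. The groups did not overlap, and the difference was 0.76 ± 0.23 (limma adjusted p = 0.0445). Col6a1 rose by 0.35 ± 0.11 (adjusted p = 0.0465), and Col6a2, its partner chain in the trimer, was 0.26 higher without passing the test.

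Col10a1, a chain of hypertrophic cartilage, rose by 0.33 ± 0.10 (limma adjusted p = 0.0411) at values of 6.07 to 6.65 that all lay below the lower quartile of the tested values. Col6a3 lost its call without wild-type naive arrays 2 or 3 or stroke arrays 1 or 2 (differences of 0.60 to 0.79). Col6a1 lost it without naive arrays 1 or 3 or any 1 stroke array (0.27 to 0.40), and Col10a1 without naive arrays 1 or 3 or stroke arrays 2 or 3 (0.25 to 0.33). The 2 probe sets of Col6a5 disagreed, since the brighter one differed by 0.25 ± 0.19 and was not called, while the dimmer one rose by 0.46 ± 0.13 (limma adjusted p = 0.0342). None of the 9 fibril-associated chains was called, where 10.9% of all probe sets were. Their differences ran from -0.01 to 0.28, the highest being that of Col14a1.

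In mast cell-deficient mice no collagen was called after stroke by limma, where 0.25% of all probe sets were called. At an unadjusted p under 0.05 the count was 7 of 44, against 13.5% of all probe sets, and at one under 0.01 it was 2 (3.9% of all). Positive differences were found for 34 of the 44 (61.4% of all probe sets), with a median of 0.11 against 0.04 over all. All 8 basement membrane chains were among the 34. Col4a1 read 9.32, 9.02 and 9.32 on the deficient naive arrays and 9.35, 9.34 and 9.30 after stroke, with overlap and a difference of 0.11 ± 0.09. Col3a1 read 10.87, 10.72 and 11.46 in naive and 11.04, 11.08 and 10.50 in stroke dura. Its groups overlapped, with a difference of -0.14 ± 0.21.

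Col18a1 read 8.49, 8.42 and 8.44 in deficient naive and 8.63, 8.60 and 8.83 in deficient stroke dura. The groups did not overlap, and the difference of 0.24 ± 0.08 had an unadjusted p of 0.00942 and a limma adjusted p of 0.251. Col27a1 was likewise apart by 0.26 ± 0.08 (adjusted p = 0.236). The type I chains had negative differences that did not pass the test. Col1a1 read 12.51, 12.48 and 12.90 in naive and 12.20, 12.29 and 11.96 in stroke dura. These groups were apart by -0.48 ± 0.19, and those of Col1a2 by -0.36 ± 0.14, with limma adjusted p of 0.314 and 0.304. Of all 44, 11 had stroke arrays wholly above the naive ones, where 13.7% of all probe sets did, and 2 wholly below (5.92%).

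In engrafted mice no collagen was called after stroke either, where limma called 1.11% of all probe sets, and 6 of 44 had an unadjusted p under 0.05 (10.9% of all), 1 of them under 0.01 (4.37% of all). The difference was negative for 31 of the 44, with a median of -0.10, while the median of all probe sets was -0.01. Col4a1 read 9.25, 9.30 and 9.36 on the engrafted naive arrays and 9.47, 9.47 and 9.65 after stroke. It was the only chain with all stroke arrays above the naive ones (0.23 ± 0.09, adjusted p = 0.303), where 8.89% of all probe sets were.

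Col8a2, a short-chain collagen that forms hexagonal sheets, had a negative difference in engrafted mice. It read 9.77, 9.86 and 9.91 in naive and 9.44, 9.63 and 9.47 in stroke dura. The groups were apart by -0.33 ± 0.10 (limma adjusted p = 0.128). Another 6 chains also had stroke arrays wholly below the naive ones, which made 7 of 44 against 7.6% of all probe sets.

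Averaged over the 3 categories, 6 collagens rose and 2 fell after stroke. Of all probe sets 8.05% were called higher and 5.42% lower. At an unadjusted p under 0.05 there were 16 of 44 collagens (27.2% of all). Col4a1 rose by 0.33 ± 0.05, Col18a1 by 0.32 ± 0.05 and Col4a2 by 0.28 ± 0.06 (limma adjusted p = 0.000421, 0.000267 and 0.00399). Col6a1 rose by 0.23 ± 0.06, Col27a1 by 0.18 ± 0.05 and Col5a3 by 0.16 ± 0.05. An averaged rise need not hold in each category: in engrafted mice the mean of Col5a3 was 7.91 in naive and 7.91 in stroke dura. The 2 that fell were Col1a2, by 0.28 ± 0.08, and Col8a2, by 0.19 ± 0.06 (adjusted p = 0.0313 and 0.0334).

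Col4a1, Col4a2, Col18a1 and Col6a1 kept this call in all 25 alternatives. Col1a2 lost it when any of 9 single arrays was left out (-0.24 to -0.28, the widest change without engrafted naive array 3), Col8a2 without any of 9 (-0.15 to -0.19) and Col5a3 without any of 10 (0.14 to 0.17). Col27a1 lost it without engrafted naive array 1 (0.16, adjusted p = 0.0512). Col3a1, with 0.30 ± 0.12, and Col1a1, with -0.31 ± 0.11, did not pass (adjusted p = 0.119 and 0.078).

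The next comparisons asked whether collagens differed with mast cell status. After stroke, deficient dura was lower than wild-type dura in Col4a1 and Col18a1, and no collagen was called higher. Of all probe sets 1.97% were called lower and 0.642% higher, 2.61% in all. Col4a1 values of 9.30 to 9.35 on the deficient stroke arrays lay below the wild-type range of 9.67 to 9.90, a difference of -0.44 ± 0.09 (limma adjusted p = 0.0117). For Col18a1 the deficient range of 8.60 to 8.83 lay below the wild-type range of 8.99 to 9.10, a difference of -0.34 ± 0.08 (adjusted p = 0.0314).

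Col4a2 differed the same way by -0.32 ± 0.10 (limma adjusted p = 0.112), Col3a1 by -0.56 ± 0.21 (0.207) and Col5a2 by -0.46 ± 0.17 (0.223), each with no overlap between the arrays. Basement membrane chains had deficient arrays wholly below the wild-type ones for 4 of 8. Of all 44 collagens 6 lay wholly below, where 9.98% of all probe sets did, and 5 wholly above (9.46% of all). At an unadjusted p under 0.05 there were 6 of 44 (14.4% of all), a share near that of all probe sets. Col8a2 stood on the other side, higher in deficient stroke dura by 0.33 ± 0.10 (adjusted p = 0.0977). Col4a1 lost its call without wild-type stroke array 2 (-0.38) or deficient stroke array 3 (-0.43). It also lost it when the 5 Ttr-low arrays were removed (-0.39, adjusted p = 0.129). Col18a1 lost its call without any 1 of the 3 wild-type stroke arrays or without deficient stroke arrays 1 or 2 (-0.30 to -0.36). In all, its call was kept in 5 of 14 alternatives. It was also lost with the replicate number as a block or with the choroid plexus and neuron covariates (limma adjusted p = 0.05945 and 0.136). Without the 5 Ttr-low arrays Col18a1 differed by -0.32. With only the compared groups fitted, neither Col4a1 nor Col18a1 was called (limma adjusted p = 0.0585 and 0.139).

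Before stroke no collagen was called between deficient and wild-type dura, where limma called 0.0185% of all probe sets, and 11 of 44 had an unadjusted p under 0.05 (6.82% of all), 1 of them under 0.01 (1.5% of all). All 11 fibrillar chains had positive differences, from 0.04 to 0.46, with a median of 0.25, against a median of -0.01 over all probe sets. Their deficient arrays lay wholly above the wild-type ones for 7 of 11, against 5.06% of all probe sets. Of all 44 collagens 12 lay wholly above (5.06% of all) and 1 wholly below (6.77% of all). Basement membrane chains had a median of -0.01. The 25 other chains had a median of 0.09, with 22 positive, so the shift was not confined to fibrillar chains. Positive differences were found for 37 of all 44, against 45.6% of all probe sets. The mean of 7 osteoblast and osteocyte markers was 7.93 to 8.23 on wild-type naive and 8.12 to 8.52 on deficient naive arrays; 1 of the 7, Mepe, was below the lower quartile on all arrays, and 0 of the 7 were called. The mean of the fibroblast markers was 9.90 to 9.97 on wild-type and 9.99 to 10.31 on deficient naive arrays, and that of the cartilage and tendon markers 8.32 to 8.42 and 8.49 to 8.68. Both lay wholly higher in deficient naive dura, although limma called 0 of 10 in either list. Deficient naive arrays 1 and 3 are also among the 5 Ttr-low arrays. The part of these cells and arrays in the collagen shift was not tested.

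Col6a3 was 0.62 ± 0.23 higher in deficient than wild-type naive dura, with deficient values of 10.56, 10.38 and 10.97 above the wild-type values of 10.21, 10.07 and 9.77 (limma adjusted p = 0.683). Col12a1, a fibril-associated chain, read 12.59, 12.49 and 12.79 in deficient and 12.37, 12.33 and 12.36 in wild-type naive dura. These arrays did not overlap either, and the difference was 0.27 ± 0.09 (unadjusted p = 0.00911, adjusted p = 0.653). Over naive and stroke dura together no collagen was called between deficient and wild type, where 1.11% of all probe sets were (0.453% higher), and 10 had an unadjusted p under 0.05 (15.8% of all). The nearest was Col8a2, higher by 0.28 ± 0.07 (adjusted p = 0.0622); Col16a1 (0.25), Col12a1 (0.19) and Col18a1 (-0.19) also had an unadjusted p under 0.01, which made 4 of 44 (5.59% of all).

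**Figure D3:**
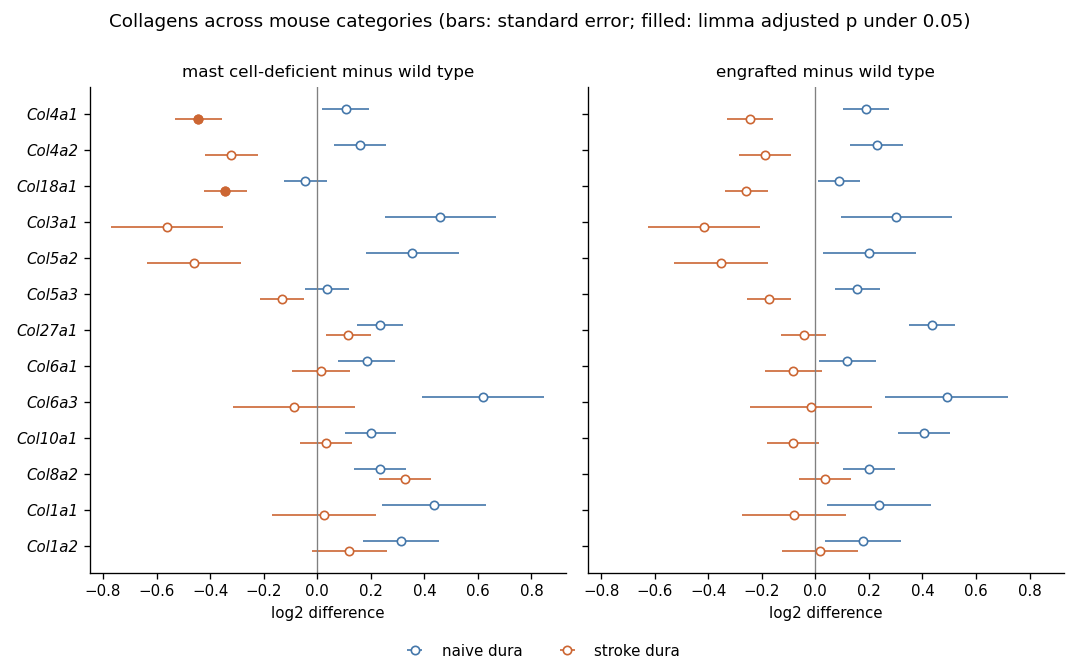
Log2 difference from wild-type dura for 13 collagen genes, with mast cell-deficient mice on the left and engrafted mice on the right, naive dura in blue and stroke dura in orange; bars are standard errors and filled symbols have a limma adjusted p under 0.05. Only Col4a1 at -0.44 and Col18a1 at -0.34 in deficient stroke dura are filled.

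Engrafted naive dura differed from wild-type naive dura in no collagen by limma, where 0% of all probe sets were called, and 12 of 44 had an unadjusted p under 0.05 (19.1% of all). The difference was positive for 41 of 44, with a median of 0.19 against 0.00 over all probe sets. The means of the fibroblast markers (9.98 to 10.21 against 9.90 to 9.97) and of the cartilage and tendon markers (8.52 to 8.63 against 8.32 to 8.42) also lay wholly higher on the engrafted naive arrays, with 0 of 10 called in either list, and their part in the shift was not tested. Col27a1 read 8.44, 8.51 and 8.72 on engrafted and 8.16, 8.12 and 8.08 on wild-type naive arrays. The groups were apart by 0.44 ± 0.08 (adjusted p = 0.0904). Col10a1 was higher by 0.41 ± 0.10, Col16a1 by 0.36 ± 0.12, Col7a1, the anchoring fibril collagen, by 0.26 ± 0.08 and Col26a1 by 0.22 ± 0.07, each with adjusted p between 0.12 and 0.157. In all, 18 of 44 had engrafted arrays wholly above the wild-type ones, against 12.1% of all probe sets. The same wild-type naive arrays serve here, in the comparison with deficient naive dura and in the wild-type stroke comparison, so these results are not independent. On wild-type naive arrays 1, 2 and 3 the median collagen deviation from the 18-array mean was -0.12, -0.05 and -0.24.

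After stroke, engrafted and wild-type dura differed in no collagen by limma, where 0.411% of all probe sets were called, and 4 of 44 had an unadjusted p under 0.05 (11.6% of all). The nearest was Col18a1, which read 8.87, 8.68 and 8.77 in engrafted and 8.99, 8.998 and 9.10 in wild-type stroke dura. These arrays did not overlap, and the difference was -0.26 ± 0.08 (adjusted p = 0.181). Col4a1 was lower by 0.24 on the log2 scale in engrafted stroke dura, with a difference of -0.24 ± 0.09 and an adjusted p of 0.253.

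Engrafted and deficient dura, which share the Kit mutations and differ in mast cells, showed no collagen call by limma in naive dura (0.0185% of all probe sets called) or after stroke (0.0277%), or over both (0.0323%). At an unadjusted p under 0.05 there were 4 collagens in naive dura (4.7% of all probe sets), 2 after stroke (6.28%) and 2 over both (2.66%). For Col4a1 after stroke the engrafted values of 9.47, 9.47 and 9.65 lay above the deficient values of 9.35, 9.34 and 9.30. Its difference of 0.20 was not called. It was the only collagen wholly above, where 3.81% of all probe sets were, and 5 lay wholly below (6.1% of all). After stroke 37 of the 44 had negative differences, with a median of -0.10 against -0.02 over all probe sets. For Col8a2 the engrafted values lay below, at 9.44, 9.63 and 9.47 against 9.90, 9.81 and 9.71, a difference of -0.29 ± 0.10 (unadjusted p = 0.00825, adjusted p = 0.749).

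Whether the response to stroke itself differed between categories was tested as an interaction. No collagen passed for deficient against wild-type mice, where limma called 0.351% of all probe sets, and 6 of 44 had an unadjusted p under 0.05 (7.35% of all). The response of Col4a1 was smaller in deficient mice by 0.55 ± 0.12 on the log2 scale, the difference of responses being -0.55 (adjusted p = 0.0863). For Col3a1 it was -1.02 ± 0.29 (0.242), for Col5a2 -0.81 ± 0.25 (0.273) and for Col4a2 -0.48 ± 0.14 (0.242). Without the 5 arrays lowest in Ttr these were -0.29 for Col4a1, -0.66 for Col3a1, -0.49 for Col5a2 and -0.22 for Col4a2. That removal leaves 1 deficient naive array, which is assumed to vary like the arrays of the other groups. Deficient naive array 3, one of the 5, was the highest of its group for Col3a1 and Col5a2. For these genes the naive mean was already higher in deficient than in wild-type dura (11.02 against 10.56 and 9.44 against 9.08).

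No collagen passed for engrafted against wild-type mice (0.106% of all probe sets called by limma), and 15 of 44 had an unadjusted p under 0.05 (13.2% of all). The difference of responses was negative for 42 of 44 and for all 8 basement membrane chains, with medians of -0.26 and -0.34 against -0.02 over all probe sets. Both comparisons use the same wild-type arrays. The median difference of engrafted from wild-type dura over the 44 was 0.19 in naive dura and -0.06 after stroke. For the basement membrane chains it was 0.12 and -0.22. These differences of responses thus also hold a difference before stroke. Under an unadjusted p of 0.01 were Col27a1 (-0.48 ± 0.12), Col10a1 (-0.49 ± 0.14), Col4a1 (-0.43 ± 0.12), Col4a2 (-0.42 ± 0.14), Col4a4 (-0.39 ± 0.13), Col7a1 (-0.39 ± 0.12), Col18a1 (-0.35 ± 0.11) and Col28a1 (-0.31 ± 0.10), with limma adjusted p of 0.175 to 0.239. Between engrafted and deficient mice no collagen passed (0.00462% of all), and 9 of 44 had an unadjusted p under 0.05 (9.69% of all), the lowest being those of Col27a1 (-0.36) and Col26a1 (-0.32).

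**Figure D4:**
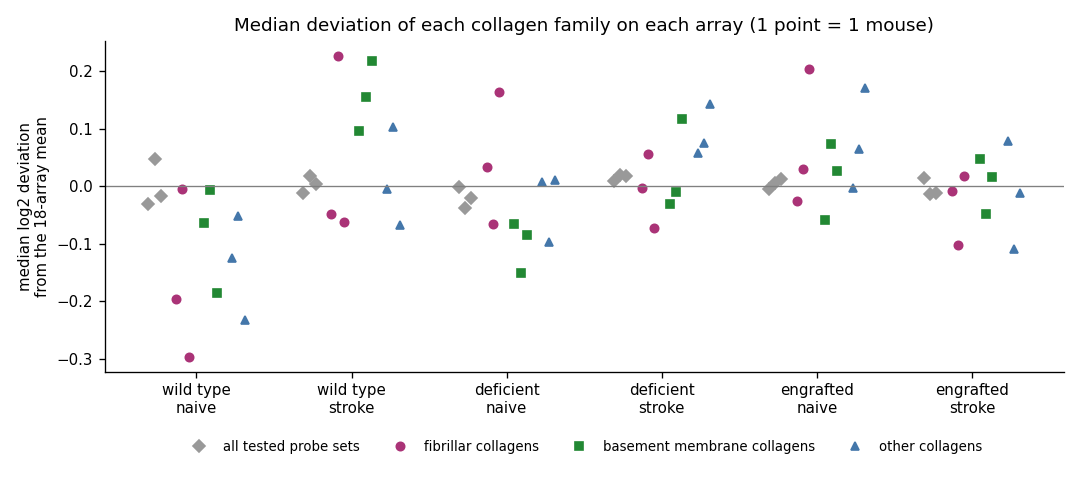
Median log2 deviation from the mean of all 18 arrays, for all tested probe sets and for the fibrillar, basement membrane and other collagens, with 1 point per array in each of 6 groups. Basement membrane chains lie at 0.10 to 0.22 on the wild-type stroke arrays and at -0.19 to -0.01 on the wild-type naive arrays, while all tested probe sets stay between -0.04 and 0.05.

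Genes that make, cut, bind and degrade collagen were described by lists. In wild-type stroke dura 4 of 18 genes for collagen modification and folding rose and 0 fell, where 6.24% of all probe sets were called higher. Plod3, which hydroxylates lysines and adds sugars on collagen, read 9.56, 9.66 and 9.45 in naive and 10.14, 10.14 and 10.07 in stroke dura. The arrays did not overlap, with a difference of 0.56 ± 0.09 (limma adjusted p = 0.00123). Plod1, another lysyl hydroxylase, rose by 0.44 and Colgalt1, a collagen galactosyltransferase, by 0.26. Colgalt1 lost its call without any 1 of the 6 wild-type arrays, and Plod1 with the choroid plexus and neuron covariates (0.23, adjusted p = 0.0751). None of the 18 was called in deficient or in engrafted mice, where 0.25% and 1.11% of all probe sets were.

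Of 11 genes for procollagen cleavage and crosslinking 6 rose in wild-type stroke dura (6.24% of all probe sets). Lox, the lysyl oxidase that starts crosslinks between collagen molecules, read 10.76, 10.41 and 10.81 in naive and 11.55, 11.75 and 11.83 in stroke dura. All stroke arrays were above all naive ones, by 1.05 ± 0.16 or 2.07-fold (limma adjusted p = 0.000637). In deficient mice it read 11.07, 10.76 and 11.30 in naive and 11.04, 10.87 and 10.93 in stroke dura, a difference of -0.09 ± 0.16. Its response differed between deficient and wild-type mice by -1.14 ± 0.23 (adjusted p = 0.0416), a call kept in 5 of 20 alternatives (-0.81 to -1.28). The procollagen C-proteinases Tll1 and Bmp1 rose by 0.67 and 0.55 in the wild type and their enhancer Pcolce by 0.33. Tll1 lost its call without wild-type naive array 3, and Pcolce without naive arrays 2 or 3 or stroke array 3 of the wild type; over the alternatives they ran from 0.41 to 0.76 and from 0.21 to 0.40.

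Of 10 genes of collagen degradation 4 rose in wild-type stroke dura (6.24% of all probe sets). None of the 10 was called in deficient or engrafted mice, where 0.25% and 1.11% of all probe sets were. The collagenase Mmp13 rose by 1.22 ± 0.23 and the membrane-bound Mmp14 by 0.66 ± 0.14. With the choroid plexus and neuron covariates they differed by 0.75 and 0.37 and were not called (limma adjusted p = 0.0914 and 0.0604). Mmp9, the gelatinase B that also cuts type IV collagen and is abundant in neutrophils, is named here after its values were seen. It read 9.92, 10.19 and 9.92 in naive and 10.90, 11.56 and 10.99 in stroke dura of wild-type mice, a rise of 1.14 ± 0.21 (limma adjusted p = 0.00238). In deficient mice it read 10.92, 10.69 and 11.18 in naive and 10.74, 10.74 and 10.28 in stroke dura, and its responses differed by -1.48 ± 0.29 (adjusted p = 0.0414), a call kept in 7 of 20 alternatives (-1.11 to -1.60).

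Of 10 small proteoglycans that coat collagen fibrils, 4 fell in wild-type stroke dura, 2 in deficient and 2 in engrafted, and none rose. Of all probe sets 4.63%, 0.125% and 0.236% were called lower in these comparisons. Fmod, fibromodulin, read 12.74, 12.62 and 12.54 in wild-type naive and 11.49, 11.56 and 11.25 in stroke dura. The difference was -1.19 ± 0.09 (limma adjusted p = 2.14e-06), and it fell by 0.56 in deficient and by 0.67 in engrafted dura. Omd, osteomodulin, fell by 1.23, by 1.06 and by 0.94 in the 3 categories. The deficient call of Fmod was lost without deficient naive arrays 1 or 3 or stroke arrays 1 or 3 (-0.51 to -0.56, adjusted p = 0.0776 to 0.107). That of Omd was lost without deficient stroke arrays 1 or 3 (-1.03 and -0.99). When only the compared groups were fitted, neither gene was called in deficient (adjusted p = 0.227 and 0.155) or in engrafted mice (0.0661 and 0.0935). Fmod was higher in deficient than in wild-type stroke dura by 0.91 ± 0.09 (adjusted p = 6.13e-05). The mean of 10 cartilage and tendon markers was 8.32 to 8.42 on wild-type naive and 7.67 to 7.81 on wild-type stroke arrays, where 5 of the 10 fell; its part in the proteoglycan result was not tested. Of 8 collagen receptors, 1 rose in wild-type stroke dura, where 6.24% of all probe sets were called higher. It was the integrin chain Itgb1, by 0.26 ± 0.08, a call that was lost without any 1 of the 6 wild-type arrays (0.17 to 0.30 over all alternatives).

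**Figure D5:**
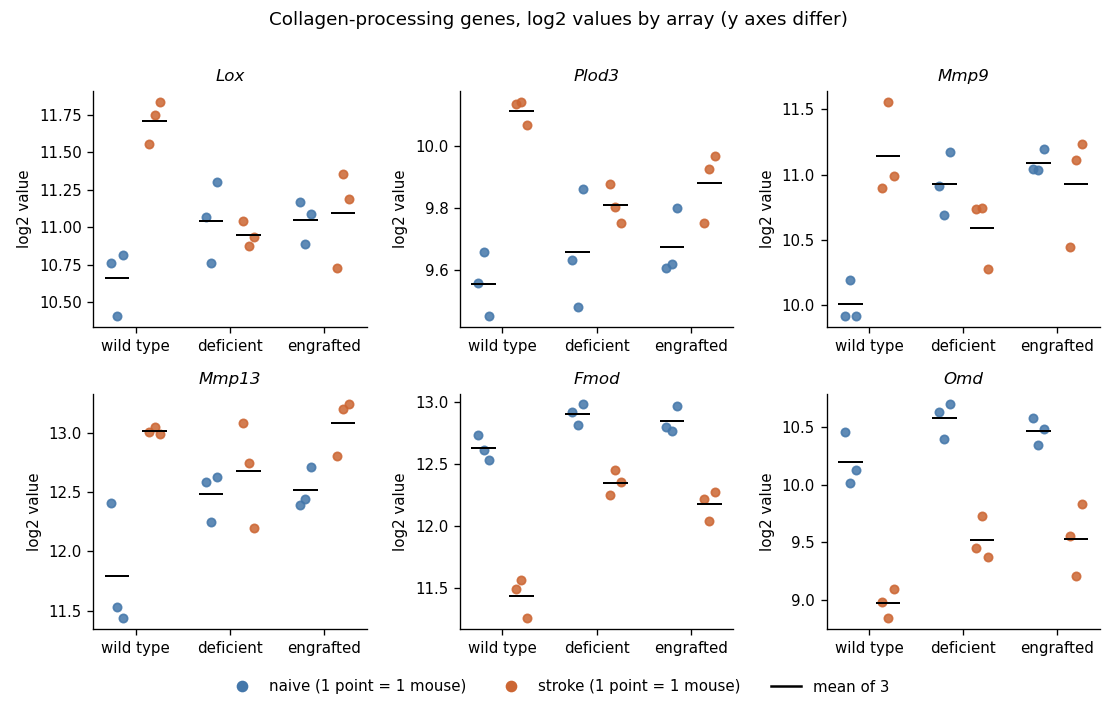
Log2 values on all 18 arrays for 6 genes that crosslink, modify, degrade or bind collagen, with naive arrays in blue, stroke arrays in orange and a bar at the mean of 3; the vertical axes differ. Lox and Mmp9 stroke points lie above the naive points in wild-type mice and overlap them in deficient mice, while Fmod and Omd stroke points lie below the naive points in all 3 categories.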

How the data were processed

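Dura RNA was measured on Affymetrix arrays, and the values the authors deposited are log2 levels of probe sets. The submitters' processing notes mention R 3.0.0, RMA and affy but not what each did; no scan date or batch was used here. The table held 34760 probe sets; 21640 with exactly 1 symbol were tested, 1321 with several and 11799 not listed were left out. Group means were estimated with limma 3.58.1 in R 4.3.3 (12 residual and 3.41 prior degrees of freedom), with 15 comparisons, each adjusted by Benjamini and Hochberg over all tested probe sets. Precision is limited by the array number, with a typical (median) standard error of 0.10 between groups and 0.14 for interactions. The p-values set each difference against the spread between arrays within groups, each array being 1 mouse. That spread covers differences in tissue content, such as choroid plexus, as well as those between mice. The code was tested on simulated data. Tables and figures used Python 3.11.15, pandas 2.3.3 and matplotlib 3.10.9. Collagen identifiers all matched RefSeq (44 of 44). Members, gene lists and tests were chosen with earlier results of these data known. Named in full were collagens called in any comparison or with unadjusted p under 0.01 between categories or responses. Mmp9 aside, genes of other lists were named from the up to 4 with the smallest p in the averaged stroke comparison. Not all of those genes are named. Lists of Schwann cell, keratinocyte, macrophage and pericyte markers were also scored.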

Additional observations from a re-analysis of the deposited data

Results flagged for a closer look

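The stroke response of Lox differed between deficient and wild-type mice by -1.14 on the log2 scale (limma adjusted p = 0.0416), and that of Mmp9 by -1.48 (limma adjusted p = 0.0414), by a test of the difference itself. Lox was called in 5 of 20 alternatives, where its difference was -0.81 to -1.28 and its adjusted p 0.00565 to 0.541. Mmp9 was called in 7 of 20, with -1.11 to -1.60 and 0.00823 to 0.438. Both lost the call without any 1 of 3 wild-type naive arrays, deficient naive arrays 1 or 3, wild-type stroke arrays 2 or 3, or any 1 deficient stroke array, and Lox also without wild-type stroke array 1. Both also lost it with a replicate block and with the choroid plexus and neuron covariates. The same held without the 5 Ttr-low arrays, a removal that leaves 1 deficient naive array. Lox lost it with the osteoblast covariate too. For Mmp9 the deficient naive arrays read wholly above the wild-type naive ones, so its difference of responses also holds a difference before stroke.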

How the results depend on the processing

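The count of 10 collagens called in wild-type stroke dura was 4 with choroid plexus and neuron covariates, 4 without the 5 arrays lowest in Ttr and 4 to 8 when 1 array was left out. It was 8 with a replicate block, 7 with only the compared groups and 9 or 11 under a filter on dim probe sets, a second quantile normalization or array weights. The averaged count of 8 became 14 with array weights and 5 to 10 with 1 array left out. The 2 called lower in deficient stroke dura became 1 with the replicate block, 4 with array weights, 0 with only the compared groups, 5 with an osteoblast covariate, 0 without the 5 arrays and 0 to 2 with 1 array left out. Counts of 0 became 1 (quantile), 6 (array weights), 1 (choroid plexus and neuron covariates) and 0 to 1 (1 array left out) for deficient against wild type over naive and stroke dura, 2 with array weights for engrafted against wild-type naive dura, and 2 with array weights and 0 to 1 with 1 array left out for the response of deficient against wild-type mice. Of all counts under alternatives, 227 stayed within 1.5 times and 24 did not, and no called direction reversed. Most of the 227 were counts of 0 that stayed 0, so this total does not measure how steady the calls were. The labels do not say what a replicate number marks. Deviations of same-numbered arrays from different groups correlated with r of -0.61 to 0.60 (median -0.06, 45 pairs). Those of differently numbered arrays correlated with r of -0.56 to 0.60 (median 0.01, 90 pairs). These correlations cannot settle whether mice were paired, since other differences between arrays could hide a pairing. The alternatives for genes that are not collagens were chosen after seeing the data; 18 of their 48 calls were kept in all of them. The cause of these changes was not tested.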
